A study of Homo sapiens with 6 samples.

Results

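The lysosomal genes described here are 41 named genes, 38 of them for soluble hydrolases, their activators and proteins of the lysosomal membrane, and 3 for transcription factors of the MiT/TFE family. They were taken by gene name from a fixed list. In the deposited tables of 57820 genes they fill 42 rows, because IDS is listed under 2 overlapping Ensembl identifiers. All 42 rows had enough counts to be tested.

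Lysosomes break down proteins, glycans, lipids and sulfated sugars with acid hydrolases. These enzymes reach the organelle mainly through the mannose 6-phosphate receptors. TFEB, TFE3 and MITF are basic helix-loop-helix factors that bind an E-box, called the CLEAR element, in the promoters of many lysosomal genes, and mTORC1 on the lysosomal surface keeps them out of the nucleus when nutrients are plentiful. Inherited loss of many of these hydrolases causes a lysosomal storage disease.

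RNA-seq was made from 3 WT and 3 ARID1A-KO samples of AID-DIvA cells, numbered 3 to 5 in each genotype and all untreated. AID-DIvA is a U2OS osteosarcoma line with an integrated vector for the AsiSI nuclease, which enters the nucleus and cuts when 4-hydroxytamoxifen is added. Both genotypes carry the nuclease, and by the labels neither had been treated to induce cutting. Breaks were not measured in these samples. The ARID1A-KO cells come from the same line, in which ARID1A, a DNA-binding subunit of the SWI/SNF chromatin remodelling complex, was disrupted with Cas9 and CRISPR guides and clones were isolated. Which clone was sequenced is not given, so the loss of ARID1A and a difference between clones cannot be told apart. The paper describes its RNA-seq replicates as biological, from 3 separate experiments, while the labels only number the samples, so p-values measure the spread between these samples. In bulk RNA, fewer cells that express a gene and less RNA of it per cell cannot be told apart.

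Reverse-stranded counts on genes came to between 54512105 and 84088708 per sample. Levels are given as CPM, counts scaled to the TMM-normalized library size, and levels of different genes are compared only as TPM, which also divides by exonic length. ARID1A itself had 173 CPM in WT and 25.9 CPM in ARID1A-KO cells on average, without overlap. Among the markers of mesenchymal and osteoblast lineage, VIM lay between 1943 and 3978 TPM and RUNX2 between 6.11 and 10.5 TPM over the 6 samples. COL1A1, SPARC, THY1 and ALPL were called lower and VIM higher in ARID1A-KO cells. The osteoblast markers SP7 and BGLAP did not pass 0.677 TPM in any sample. Macrophages and osteoclasts, which are rich in lysosomes, are represented by 9 markers, whose summed level was between 4.00 and 4.21 TPM in WT and between 4.84 and 5.84 TPM in ARID1A-KO samples. Of these markers OCSTAMP was listed at 0 in all samples and AIF1, CALCR and DCSTAMP stayed below 0.2 TPM.

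A gene is called when its adjusted p is under 0.05 in edgeR's quasi-likelihood test over all 19599 genes tested, with Benjamini-Hochberg adjustment. Of the 42 lysosomal rows, 16 were called, 12 higher and 4 lower in ARID1A-KO cells. This is 38.1% of the rows, close to the 36.2% of all genes tested that were called. By direction, 28.6% of the lysosomal rows were called higher and 9.52% lower, where the shares over all genes tested were 17.8% and 18.4%. For 24 of the 42 rows the CPM of the 2 genotypes did not overlap, or 57.1%, against 49.5% of all genes tested. The log2 fold changes ran from -1.03 for AGA to 1.21 for CTSD, 26 positive and 16 negative, with a median of 0.090, and the median over all genes tested was 0.0066. These shares and medians describe the list and were not tested. The shares over all genes tested also stand beside the counts of each role and list below.

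**Figure D1:**
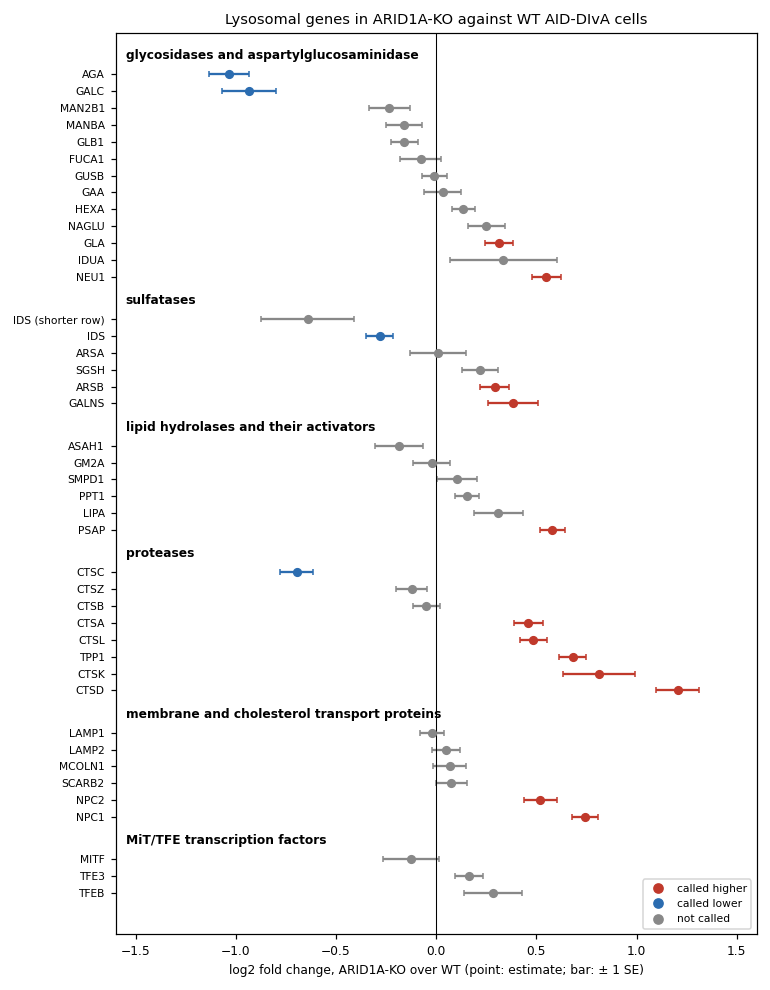
Log2 fold change (ARID1A-KO over WT, horizontal axis) of the 42 lysosomal rows, grouped by role, where each point is the edgeR estimate from 3 samples per genotype, each bar is 1 SE, red marks rows called higher, blue rows called lower and grey rows not called. The proteases hold 5 of the 12 rows called higher, a share that was not tested. CTSD stands farthest right at 1.21 and AGA farthest left at -1.03.

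Among the 13 glycosidases and aspartylglucosaminidase, which trim sugars from glycoproteins, glycolipids and glycosaminoglycans, 2 were called higher and 2 lower. AGA, which cleaves the bond between asparagine and N-acetylglucosamine in glycoproteins, fell most. AGA (ENSG00000038002.4, chromosome 4 from 178351924 to 178363657, minus strand, all gene coordinates in GRCh37) had 12.9, 13.8 and 14.3 CPM in WT replicates 3, 4 and 5 and 7.18, 6.71 and 6.12 CPM in ARID1A-KO replicates 3, 4 and 5. Every ARID1A-KO sample lay below every WT sample. The level was 2.05-fold lower in ARID1A-KO cells (log2 fold change -1.03, SE 0.10, adjusted p = 6.63e-05 in the quasi-likelihood test of edgeR). Around AGA, 19 other genes within 5 Mb were tested, with a median log2 fold change of -0.28.

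AGA lies at one of the AsiSI sites where the study induced DSBs in other experiments. The paper lists this site as NHEJ-prone, and it reports from its RNA-seq that most genes near such sites were lower in ARID1A-KO cells. In GRCh37, the build of the tables, the AsiSI recognition sequence GCGATCGC, which reads the same on both strands, lies on chromosome 4 from 178363575 to 178363582, and its nearer end is 75 bp inside the gene from the start site that the tables give. RefSeq promoters, 250 bases before to 50 bases after a start, were found for 31 of the 41 genes, in GRCh38.p14. Among these, the AsiSI sequence occurs in that of AGA and in no other, and it occurs in 0.208% of the 35116 RefSeq promoters of the table. The promoter of AGA is shown because it holds the site, which is in capitals and begins 9 bases after the RefSeq start.
AGA promoter, chr4:177442388-177442687, minus strand: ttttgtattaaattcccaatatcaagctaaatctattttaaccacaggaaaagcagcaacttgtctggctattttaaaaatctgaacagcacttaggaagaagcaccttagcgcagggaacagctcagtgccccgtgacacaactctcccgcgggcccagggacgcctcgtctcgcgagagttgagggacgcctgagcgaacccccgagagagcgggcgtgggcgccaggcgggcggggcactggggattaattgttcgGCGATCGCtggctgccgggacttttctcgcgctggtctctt

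GALC, the galactosylceramidase that degrades myelin lipids, also fell. GALC (ENSG00000054983.12, chromosome 14 from 88304164 to 88460009, minus strand) had 38.7, 26.8 and 36.2 CPM in the WT and 17.3, 16.3 and 19.5 CPM in the ARID1A-KO samples. WT replicate 4 was the lowest of its genotype and still lay above all ARID1A-KO samples. The change was 1.91-fold (log2 fold change -0.94, SE 0.13, adjusted p = 0.000663), and the 41 neighbours of GALC within 5 Mb had a median of 0.059.

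NEU1 and GLA were called higher. NEU1, the lysosomal sialidase, is active in a complex with the protective protein CTSA and the beta-galactosidase GLB1. NEU1 (ENSG00000204386.6, chromosome 6 from 31825436 to 31830683, minus strand) had 61.6, 67.6 and 64.0 CPM in WT and 89.3, 90.0 and 104 CPM in ARID1A-KO samples, with no overlap and ARID1A-KO replicate 5 the highest (log2 fold change 0.55, SE 0.075, adjusted p = 0.000476). GLA, the alpha-galactosidase that is deficient in Fabry disease, changed less. GLA (ENSG00000102393.5, chromosome X from 100652791 to 100662913, minus strand) had 54.9, 50.7 and 53.9 CPM in WT and 64.5, 62.2 and 71.5 CPM in ARID1A-KO samples (log2 fold change 0.31, SE 0.071, adjusted p = 0.00746), and the genotypes did not overlap. NEU1 and GLA have neighbours whose medians were 0.045 and -0.029.

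The other 9 glycosidases were not called. GUSB, the beta-glucuronidase often used as a reference gene, was the highest of them in TPM, with 88.1 ± 2.68 in WT and 88.6 ± 6.55 TPM in ARID1A-KO cells (SD, n = 3 each), with a log2 fold change of -0.0085 (SE 0.060). Reads of GUSB can be shared with related pseudogenes. NAGLU, which removes N-acetylglucosamine from heparan sulfate, was just short of the threshold, with 14.4, 14.6 and 16.0 CPM in WT and 16.4, 17.5 and 19.5 CPM in ARID1A-KO samples (log2 fold change 0.25, adjusted p = 0.0582). HEXA, the alpha subunit of hexosaminidase A, and MAN2B1, the acid alpha-mannosidase, also did not overlap between genotypes and were not called, at 0.14 and -0.23, though HEXA was called with an offset for exonic length (0.27, adjusted p = 0.00943). The 243 neighbours of MAN2B1 had a median of -0.31. GLB1 had -0.16, MANBA -0.16, FUCA1 -0.078 and GAA, the acid alpha-glucosidase of glycogen breakdown, 0.032. IDUA, the iduronidase of heparan and dermatan sulfate, had 1.42, 2.002 and 3.22 CPM in the ARID1A-KO samples around a WT mean of 1.77, so a change of its size (log2 fold change 0.34, SE 0.27) was within the spread of replicates.

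The sulfatases remove sulfate groups from glycosaminoglycans and sulfolipids and need the activating enzyme SUMF1. Of the 6 rows for 5 genes, 2 were called higher and 1 lower. ARSB, which acts on dermatan and chondroitin sulfate, rose. ARSB (ENSG00000113273.11, chromosome 5 from 78073032 to 78281910, minus strand) had 25.0, 22.1 and 24.7 CPM in WT and 29.3, 28.5 and 29.97 CPM in ARID1A-KO samples without overlap (log2 fold change 0.29, SE 0.074, adjusted p = 0.0132). GALNS, which acts on keratan sulfate, was called with all samples present. GALNS (ENSG00000141012.8, chromosome 16 from 88880142 to 88923378, minus strand) had 14.7, 15.2 and 20.7 CPM in WT and 21.4, 21.8 and 22.7 CPM in ARID1A-KO samples. WT replicate 5 lay close to the ARID1A-KO samples and apart from the other 2 WT samples. Its log2 fold change of 0.38 (SE 0.13, adjusted p = 0.0401) was smaller than the median of 0.41 over its 88 neighbours. The call was lost without WT replicate 3 (adjusted p = 0.152), WT replicate 4 (0.101), ARID1A-KO replicate 3 (0.0758), ARID1A-KO replicate 4 (0.0918) or ARID1A-KO replicate 5 (0.0866, edgeR's quasi-likelihood test).

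IDS, the iduronate sulfatase that is deficient in Hunter syndrome, fell. Its longer row (ENSG00000010404.13, chromosome X from 148558521 to 148615470, minus strand) had 102, 87.5 and 99.1 CPM in WT and 79.6, 78.4 and 79.1 CPM in ARID1A-KO samples without overlap (log2 fold change -0.28, SE 0.068, adjusted p = 0.0107). The shorter row of the same name (ENSG00000241489.3, chromosome X from 148564074 to 148615470) shares its strand and had at most 0.817 CPM in any sample, with a log2 fold change of -0.64 (adjusted p = 0.0582). With an offset for exonic length the longer row was no longer called (-0.12, adjusted p = 0.213). The tables also list the pseudogene IDSP1 on the opposite strand inside this region, and its reads can be shared with IDS. SGSH, the sulfamidase, had a log2 fold change of 0.22 with an adjusted p of 0.0902, and was called with the length offset (0.0416) and without WT replicate 4 (0.0209). ARSA, the arylsulfatase of sulfatide breakdown, had 28.9 ± 1.14 TPM in WT and 29.5 ± 6.71 TPM in ARID1A-KO cells (SD, n = 3 each), the highest TPM among sulfatases not called.

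Of the 6 lipid hydrolases and activators, 1 was called. PSAP encodes prosaposin, the precursor of the saposins that present sphingolipids to their hydrolases, and saposin A serves GALC. PSAP was the most abundant lysosomal transcript, with 987 ± 25.1 TPM in WT and 1493 ± 10.6 TPM in ARID1A-KO cells (SD, n = 3 each). PSAP (ENSG00000197746.9, chromosome 10 from 73576055 to 73611126, minus strand) had 701, 715 and 755 CPM in WT and 1098, 1087 and 1061 CPM in ARID1A-KO samples. The groups stood far apart relative to their spread (log2 fold change 0.58, SE 0.062, adjusted p = 0.000128). Within 5 Mb, 101 neighbours of PSAP had a median of 0.40, and with this median taken off the log2 fold change of PSAP was 0.18 (adjusted p = 0.0489). Whether the shift of its neighbours has a part in the rise was not tested. PSAP and GALC moved in opposite directions.

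The other 5 lipid genes were not called. PPT1, the palmitoyl-protein thioesterase, had 262 ± 15.1 TPM in WT and 295 ± 6.09 TPM in ARID1A-KO cells (SD, n = 3 each), the third highest level of all members, with 0.15 for its log2 fold change (adjusted p = 0.0738). LIPA, the acid lipase that frees cholesterol from its esters, had 52.3, 40.1 and 53.8 CPM in WT and 56.4, 56.1 and 68.7 CPM in ARID1A-KO samples. The genotypes of LIPA did not overlap, yet the spread within them kept its log2 fold change of 0.31 (SE 0.12) at an adjusted p of 0.0733, and its 70 neighbours had a median of 0.30. SMPD1, the acid sphingomyelinase, had 0.10, ASAH1, the acid ceramidase, -0.19 (adjusted p = 0.262, and 0.0275 without WT replicate 4) and GM2A, the activator that presents ganglioside GM2 to hexosaminidase A, -0.022.

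Of the 8 proteases, 6 were called, 5 higher and 1 lower, with a median log2 fold change of 0.47. These are 75% called, 62.5% higher and 12.5% lower, against 36.2%, 17.8% and 18.4% of all genes tested. The list is small, and of the roles it has the largest share called. No test was made over it. CTSD is the aspartic protease cathepsin D and rose more than any other member. CTSD (ENSG00000117984.8, chromosome 11 from 1773982 to 1785222, minus strand) had 59.1, 53.1 and 67.5 CPM in WT and 121, 139.9 and 153 CPM in ARID1A-KO samples. The lowest ARID1A-KO sample was well above the highest WT sample, and ARID1A-KO replicate 3 was the lowest of its genotype. The level was 2.31-fold higher in ARID1A-KO cells (log2 fold change 1.21, SE 0.11, adjusted p = 4.32e-05). Its 109 neighbours had a median of 0.27, with which taken off the log2 fold change was 0.94. By TPM, CTSD went from rank 13 to rank 5 among the 42 rows. Its RefSeq promoter is shown because it is the member with the largest rise and holds an E-box, CACGTG, in capitals, that begins 47 bases before the start.
CTSD promoter, chr11:1763878-1764177, minus strand: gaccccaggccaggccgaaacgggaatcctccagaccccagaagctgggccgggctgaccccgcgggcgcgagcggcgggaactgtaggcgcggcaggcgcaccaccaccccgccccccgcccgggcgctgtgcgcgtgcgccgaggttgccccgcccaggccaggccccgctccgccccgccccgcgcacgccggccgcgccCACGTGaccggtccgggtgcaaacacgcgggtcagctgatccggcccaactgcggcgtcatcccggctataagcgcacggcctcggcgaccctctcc

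TPP1, the tripeptidyl peptidase that is deficient in a neuronal ceroid lipofuscinosis, rose 1.603-fold. TPP1 (ENSG00000166340.10, chromosome 11 from 6634000 to 6640692, minus strand) had 99.4, 111 and 96.7 CPM in WT and 167, 166 and 159.7 CPM in ARID1A-KO samples (log2 fold change 0.68, SE 0.067, adjusted p = 7.91e-05). CTSL, the cysteine protease cathepsin L, rose 1.40-fold. CTSL (ENSG00000135047.10, chromosome 9 from 90340434 to 90346308, plus strand) had 74.2, 75.6 and 83.1 CPM in WT and 114, 107 and 105 CPM in ARID1A-KO samples (log2 fold change 0.49, SE 0.066, adjusted p = 0.000489). For both genes the genotypes did not overlap, and their neighbours had medians of 0.15 for TPP1 and -0.0091 for CTSL.

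CTSA, the serine carboxypeptidase that protects NEU1 and GLB1 from degradation, rose with NEU1, whereas GLB1 was not called. NEURL2, PLTP and RP3-337O18.9 overlap CTSA on the opposite strand. CTSA (ENSG00000064601.12, chromosome 20 from 44518783 to 44527459, plus strand) had 74.0, 72.5 and 84.1 CPM in WT and 102, 104 and 110.3 CPM in ARID1A-KO samples without overlap (log2 fold change 0.46, SE 0.072, adjusted p = 0.00104). GLB1 had 70.6, 66.7 and 75.0 CPM in WT and 64.4, 60.4 and 65.1 CPM in ARID1A-KO samples, the lower values in ARID1A-KO without overlap (adjusted p = 0.0894). Whether the changes of the 3 partners differ from each other was not tested.

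CTSK, the collagen-degrading cathepsin K of osteoclasts, was called higher at a low level. CTSK (ENSG00000143387.8, chromosome 1 from 150768684 to 150780799, minus strand) had 1.57, 1.73 and 1.13 CPM in WT and 2.72, 2.67 and 2.45 CPM in ARID1A-KO samples without overlap (log2 fold change 0.81, SE 0.18, adjusted p = 0.0068). It was the fourth lowest of the 42 rows, with 3.45 ± 0.749 TPM in WT and 6.16 ± 0.184 TPM in ARID1A-KO cells (SD, n = 3 each). Beside this rise, the osteoclast markers OSCAR, at 0.421 TPM on average in WT and 1.04 TPM in ARID1A-KO cells, and ITGAM, a marker of myeloid cells, at 0.390 and 3.07 TPM, were also called higher, while CSF1R (-3.34) and PTPRC (-2.10) were called lower and OCSTAMP, DCSTAMP and CALCR were at or near 0. All samples are cultures of the same line, and whether all or only some of its cells raised CTSK was not tested.

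CTSC, the dipeptidyl peptidase that activates granule serine proteases, was the protease that fell. CTSC (ENSG00000109861.11, chromosome 11 from 88026760 to 88070955, minus strand) had 248, 265 and 307 CPM in WT and 174, 170.1 and 162 CPM in ARID1A-KO samples (log2 fold change -0.70, SE 0.083, adjusted p = 0.000229). All ARID1A-KO samples were below all WT samples. Its 29 neighbours had a median of -0.34, and with it taken off CTSC had -0.36 (adjusted p = 0.0105). CTSB and CTSZ, abundant cysteine proteases, were not called. CTSZ had 253 ± 22.3 TPM in WT and 236 ± 9.19 TPM in ARID1A-KO cells, and CTSB 141 ± 6.56 and 138 ± 8.74 TPM (SD, n = 3 each), with the genotypes overlapping for both.

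**Figure D2:**
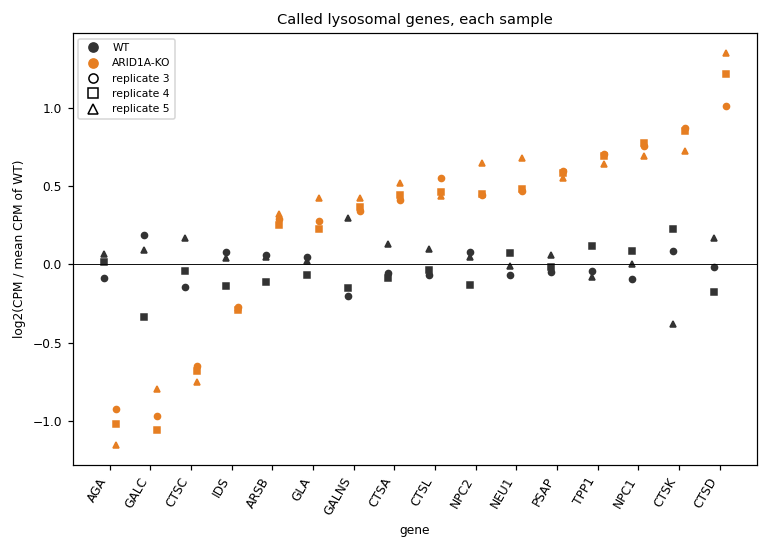
Log2 ratio of each sample's CPM to the mean CPM of the 3 WT samples (vertical axis) for the 16 called rows (horizontal axis), with WT in black, ARID1A-KO in orange and a marker shape for each replicate number. The genotypes do not overlap for any of the 16, and for GALNS one WT sample, replicate 5, sits just below the ARID1A-KO samples.

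Of the 6 genes for membrane and cholesterol transport proteins, 2 were called, both higher. NPC2 is a soluble protein that takes cholesterol from the lysosomal lumen and hands it to NPC1, the membrane protein that exports it, and loss of either causes Niemann-Pick disease type C. NPC1 (ENSG00000141458.8, chromosome 18 from 21086148 to 21166862, minus strand) had 83.8, 94.9 and 89.9 CPM in WT and 152, 153 and 145 CPM in ARID1A-KO samples. The difference was 1.68-fold, with no overlap and the lowest adjusted p of the lysosomal genes (log2 fold change 0.74, SE 0.065, adjusted p = 3.82e-05). The median of its 29 neighbours was -0.072. NPC2 (ENSG00000119655.4, chromosome 14 from 74942895 to 74960880, minus strand) had 41.9, 36.3 and 41.0 CPM in WT and 54.2, 54.2 and 62.5 CPM in ARID1A-KO samples, with no overlap and ARID1A-KO replicate 5 the highest (log2 fold change 0.52, SE 0.083, adjusted p = 0.00121). ISCA2 and RAP1AP overlap NPC2 on the opposite strand. The 99 neighbours of NPC2 had a median of 0.37, and with this median taken off the call was lost (log2 fold change 0.15, adjusted p = 0.195).

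The other 4 genes, all for proteins of the lysosomal membrane, overlapped between the genotypes and were not called. LAMP1, the most abundant of them, had 406, 398 and 427 CPM in WT and 396, 399 and 420.4 CPM in ARID1A-KO samples, a log2 fold change of -0.019 (SE 0.061). The 35 neighbours of LAMP1 had a median of -0.36. LAMP2, whose isoforms include the receptor of chaperone-mediated autophagy, had 0.048 (SE 0.071), SCARB2, the receptor that carries glucocerebrosidase to lysosomes, 0.076 (SE 0.076), and MCOLN1, a lysosomal calcium channel, 0.067 (SE 0.084).

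Of the 3 MiT/TFE factors, 0 were called by edgeR's quasi-likelihood test or by DESeq2, and 1, TFE3, had an unadjusted p under 0.05 (edgeR, 0.0406). TFE3 was the most abundant, with 125 ± 6.84 TPM in WT and 142 ± 4.07 TPM in ARID1A-KO cells (SD, n = 3 each). The CPM of TFE3 was 114, 122 and 131 in WT and 137, 142 and 131 in ARID1A-KO samples (log2 fold change 0.16, SE 0.069, adjusted p = 0.0927), and WT replicate 5 nearly met ARID1A-KO replicate 5. MITF, the melanocyte factor, had 21.7 ± 3.73 and 20.1 ± 3.75 TPM and a log2 fold change of -0.13 (adjusted p = 0.522). TFEB was low, at 2.47 ± 0.293 and 3.04 ± 0.319 TPM, and had 0.28 (adjusted p = 0.16). RNA levels say nothing of whether these factors are in the nucleus.

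The CLEAR element contains the E-box CACGTG, which reads the same on both strands, and the longer form TCACGTGA contains that E-box and also reads the same on both strands. Both were searched in the RefSeq promoters, of which the 31 matched genes have 43. The E-box occurs in 8 of the 43, or 18.6%, against 7.26% of all 35116 promoters, and the longer form in 5, or 11.6%, against 0.98%. By call, the E-box is in promoters of 5 of the 10 matched genes called higher (ARSB, CTSA, CTSD, GALNS and NEU1), in none of the 4 called lower and in 3 of the 17 not called (GAA, LAMP1 and MCOLN1). The longer form is in 2 genes called higher (CTSA and GALNS) and in the same 3 not called. These matches describe the letters of the windows and were not tested. CTSA, GALNS, GAA and MCOLN1 hold 2 E-boxes each and LAMP1 holds 6. For each of these genes 1 in the longer form was picked. The other E-boxes of CTSA and GALNS, and some of LAMP1, are not in the longer form. The stretches of 30 bases below are shown to compare the called and the uncalled genes. The E-box is in capitals, and the first 4 are from genes called higher.
ARSB, chr5:78986101-78986130, minus strand: taattcaataagCACGTGactaaaggattt
CTSA, chr20:45891298-45891327, plus strand: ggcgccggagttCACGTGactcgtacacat
GALNS, chr16:88857104-88857133, minus strand: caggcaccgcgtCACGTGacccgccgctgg
NEU1, chr6:31862930-31862959, minus strand: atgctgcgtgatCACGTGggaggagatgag
GAA, chr17:80101538-80101567, plus strand: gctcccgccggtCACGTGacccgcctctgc
LAMP1, chr13:113297199-113297228, plus strand: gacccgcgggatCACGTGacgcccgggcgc
MCOLN1, chr19:7522598-7522627, plus strand: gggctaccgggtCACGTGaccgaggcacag
LAMP1 holds 6 E-boxes in its promoter, more than any other of the 31 matched genes, and was not called. CTSD, which rose most, holds 1 that is not in the longer form. With the neighbours' median taken off, LAMP1 (0.35) and MCOLN1 (0.33) were called higher, GAA stayed uncalled and GALNS lost its call. ARSB, CTSA, CTSD and NEU1 kept theirs. Whether an E-box has a part in these changes was not tested.

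By level per length, the lysosomal genes spanned 3 orders of magnitude. In WT cells PSAP ranked first, followed by LAMP1, PPT1, CTSZ, CTSL and CTSB, and in ARID1A-KO cells by LAMP1, PPT1, CTSZ, CTSD and CTSL. PPT1 and CTSZ, at 262 ± 15.1 and 253 ± 22.3 TPM in WT, did not differ beyond their spread, nor did CTSL and CTSB, at 144 ± 6.95 and 141 ± 6.56. The lowest 4 rows in both genotypes were CTSK, TFEB, IDUA and the shorter IDS row. CTSC fell from rank 10 to rank 19, NPC1 rose from 24 to 18 and AGA fell from 31 to 37. The TPM of all 42 rows summed to between 3648 and 3877 in WT and between 4488 and 4827 in ARID1A-KO samples, and PSAP alone made up most of that difference. Between replicates the CPM of a row varied with a median coefficient of variation of 7.50% in WT and 5.26% in ARID1A-KO samples.

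**Figure D3:**
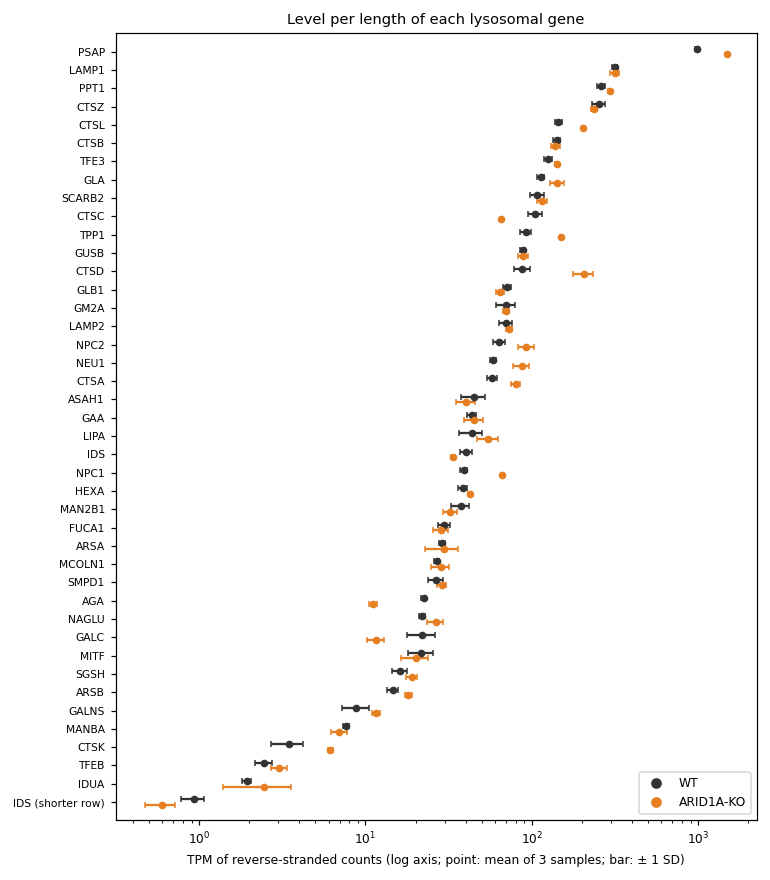
TPM of each of the 42 lysosomal rows on a log axis, ordered by the mean of the 3 WT samples (black) with the mean of the 3 ARID1A-KO samples in orange and bars of 1 SD. PSAP lies at the top near 987 TPM in WT and 1493 TPM in ARID1A-KO cells, and the means of CTSD, AGA and GALC stand well apart.

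The position of a gene on its chromosome was compared with its change, since the genes of some regions moved together in these cells. For 6 of the 16 called rows (AGA, GALNS, PSAP, CTSC, CTSD and NPC2) the neighbours within 5 Mb had moved in the same direction as the gene, by a median of at least 0.25 in size. For the other 10 the median was smaller than 0.25 in size. This count was not made over all called genes, so whether 6 of 16 is a usual share cannot be said. With the neighbours' median taken off every gene, 17 of the 42 rows were called, 12 higher and 5 lower, and of all genes tested 32.1% were then called, 15.3% higher and 16.8% lower. The median comes from these same samples and was entered as a fixed value. The p-values given with it taken off, here and above, therefore leave out its own uncertainty. LAMP1 was then called at 0.35 (adjusted p = 0.00262), MCOLN1 at 0.33 (0.0152) and CTSB at -0.23 (0.0271, edgeR's quasi-likelihood test), while GALNS and NPC2 were not. NPC1, CTSK, TPP1, NEU1, CTSL, CTSA, GLA, ARSB, GALC and IDS remained called, as did AGA, CTSC, CTSD and PSAP. The number of DNA copies was not measured here.

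**Figure D4:**
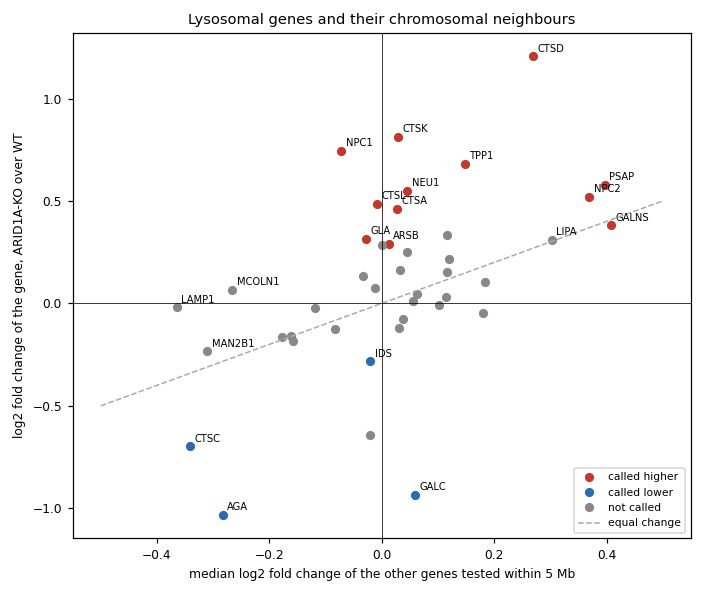
Log2 fold change of each lysosomal row (vertical axis) against the median log2 fold change of the other genes tested within 5 Mb (horizontal axis), with called rows in red or blue and a dashed line where the 2 are equal. GALNS, LIPA and MAN2B1 lie near the dashed line, while NPC1, CTSK and GALC lie far from it with neighbours near 0.

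Genes with related roles were taken from 6 lists of 156 rows, of which 149 were tested. Of these 32 were called higher and 28 lower, or 40.3%, again close to the 36.2% of all genes tested. For these genes a value in parentheses with no other name is the log2 fold change. Among 27 tested lysosomal hydrolases outside the members, 6 were called higher and 6 lower. HGSNAT, the acetyltransferase of heparan sulfate breakdown, had the largest fall, from 12.8, 13.5 and 15.6 CPM in WT to 6.13, 5.75 and 7.34 CPM in ARID1A-KO samples (-1.12, adjusted p = 0.000145). PLA2G15, the lysosomal phospholipase A2, had the largest rise (0.85, adjusted p = 1.74e-05), with a neighbour median of 0.55.

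Of 23 tested proteins of the lysosomal membrane outside the members, 8 were called higher and 4 lower. ABCD4, a transporter of cobalamin metabolism, rose most (0.69, neighbour median 0.37). GPNMB, a glycoprotein of melanosomes and lysosomes, fell most, with 47.3, 21.5 and 43.1 CPM in WT and 11.6, 11.2 and 19.97 CPM in ARID1A-KO samples (-1.38, adjusted p = 0.0064). WT replicate 4 and ARID1A-KO replicate 5 of GPNMB lay next to each other. TMEM192 fell (-1.08) and the median of its 22 neighbours was -1.42.

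The V-ATPase acidifies the lysosome, and of its 23 tested subunits and accessory proteins 4 were called higher and 3 lower. ATP6V0D1, a subunit of the membrane sector, had 51.7, 49.9 and 61.3 CPM in WT and 95.2, 94.2 and 104 CPM in ARID1A-KO samples (0.85, adjusted p = 9.31e-05, neighbour median 0.55). ATP6V0A4, an isoform known from kidney and inner ear, had 2.77, 2.87 and 3.26 CPM and 0.558, 0.546 and 0.784 CPM (-2.22, adjusted p = 3.5e-05).

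Of 15 genes for sorting to lysosomes and sulfatase activation, 4 were called higher and 2 lower. IGF2R, the large mannose 6-phosphate receptor, had 387, 394 and 394 CPM in WT and 185, 192 and 186 CPM in ARID1A-KO samples (-1.06, adjusted p = 2.82e-06). The 40 neighbours of IGF2R had a median of -1.04. SUMF2, a relative of the sulfatase activator SUMF1, rose most (0.42, adjusted p = 0.00475).

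The genes through which mTORC1 and folliculin control TFEB had 2 called higher and 5 lower of 22 tested. RRAGD, a Rag GTPase, rose from 14.2 ± 0.583 to 23.5 ± 1.30 CPM (SD, n = 3 each, 0.72, adjusted p = 0.000134). RRAGA, another Rag GTPase, fell (-1.43, median of 28 neighbours -1.48), and so did FNIP2, a partner of folliculin (-1.12, neighbour median -0.90). PPP3CA, a catalytic subunit of the phosphatase calcineurin, fell (-1.08) with a neighbour median of -0.16. TFEC, the remaining MiT/TFE factor, was called lower at 1.65, 1.35 and 3.33 CPM in WT and 0.485, 0.782 and 1.18 CPM in ARID1A-KO samples (-1.34, adjusted p = 0.0251).

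Of 39 tested autophagy genes, 8 were called higher and 8 lower. MAP1LC3B, which coats autophagosomes, had 69.1, 81.4 and 67.5 CPM in WT and 143, 145 and 125 CPM in ARID1A-KO samples (0.92, adjusted p = 7.15e-05, neighbour median 0.40). Its relative MAP1LC3C fell by 2.28 on the log2 scale at under 1 CPM in all samples (adjusted p = 0.000694).

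**Figure D5:**
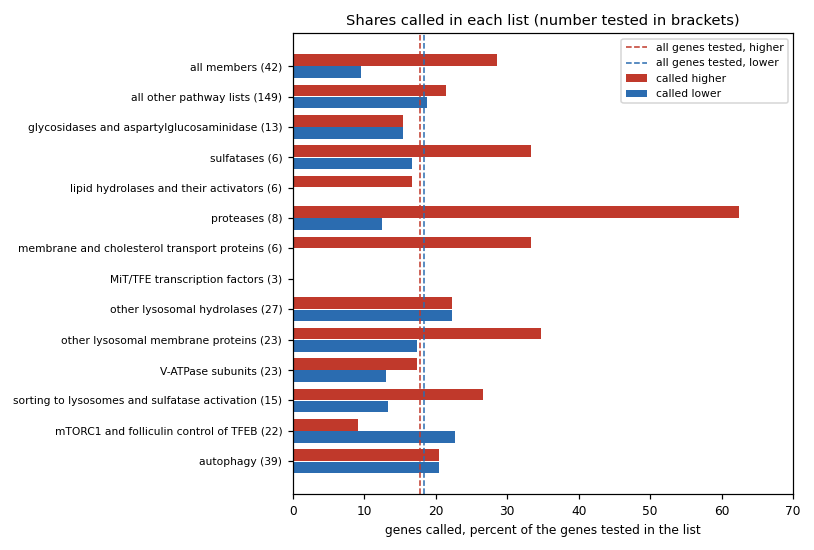
Percent of the genes tested in each list that were called higher (red) or lower (blue) in ARID1A-KO cells, with the number tested in brackets and dashed lines at the shares over all genes tested, 17.8% higher and 18.4% lower. The proteases have the longest red bar, 5 of 8, and the mTORC1 and folliculin list has more genes called lower than higher.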

How the data were processed

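RNA of 3 WT and 3 ARID1A-KO samples was sequenced from stranded libraries. The labels give poly(A) RNA, whereas the paper describes a library kit for total RNA. The authors counted reads per GENCODE gene on GRCh37 and deposited raw counts for the reverse strand, the forward strand and both, together with TPM, a length-scaled signal that the authors scaled to the autosomal genes, so its totals pass those of usual TPM. Reverse-strand counts were fitted in edgeR 4.0.16 (R 4.3.3) with filterByExpr, TMM and the quasi-likelihood test over 19599 genes, without a replicate term. DESeq2 1.42.0, the study's tool, was an alternative. The fit was tested on simulated data. Total reverse-strand counts ran from 54512105 to 84088708. Forward-strand counts entered no comparison between genotypes other than those given in the closing section.

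The named genes were ARID1A, all called members, in each role the uncalled member with the highest TPM, members whose call changed in an alternative, and in each other list the called genes with the largest rise and fall or a log2 fold change of at least 1 in size. Other members were added. The members and lists were chosen with earlier results of these data known. Promoters are from RefSeq on GRCh38.p14, a different build from the tables. Promoters of ARSA, ASAH1, CTSB, CTSK, HEXA, LAMP2, MANBA, NAGLU, PSAP and SGSH were not used here. Alternatives were counts without regard to strand, RLE size factors, other filters, a replicate block, each sample left out in turn, a stricter threshold of 0.01, a length offset and the neighbours' median taken off.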

Additional observations from a re-analysis of the deposited data

Results flagged for a closer look

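The forward-strand counts, which the comparison of genotypes did not use, held a signal above that of the WT samples for 2 lysosomal genes. Reads on this strand came to 5.83% to 6.15% of the reverse-strand counts of a sample. For CTSA the forward strand had 55, 53 and 28 counts in WT replicates 3, 4 and 5 and 81, 63 and 95 in ARID1A-KO replicates, which is 0.71 on the log2 scale (SE 0.21, adjusted p = 0.0246, edgeR's quasi-likelihood test over 8886 genes on this strand), and NEURL2, PLTP and RP3-337O18.9 overlap CTSA on the opposite strand. For NPC2 it had 272, 243 and 266 counts in WT and 364, 373 and 723 in ARID1A-KO samples, which is 0.75 (SE 0.15, adjusted p = 0.00242), and ISCA2 and RAP1AP overlap NPC2 on the opposite strand. Of the 10 lysosomal genes with enough forward counts, these 2 were called, and over all genes 1807 of 8886 were. Which transcripts these reads come from was not tested.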

How the results depend on the processing

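With 3 samples a genotype, the count of lysosomal genes called ran from 13 (adjusted p under 0.01) to 19 (replicate block), and it was 16 with counts without regard to strand, RLE size factors and DESeq2, which called the same 16 genes as edgeR. Over all genes, 4414 were called at an adjusted p under 0.01 in place of 7099. Leaving out each sample in turn gave 5285 to 7050 genes, 15 to 17 lysosomal genes and 48 to 57 genes of the other lists. For AGA it gave log2 fold changes of -1.09 to -0.97. Over all 15 alternatives AGA stayed called, with log2 fold changes of -1.09 to -0.75. With the neighbours' median taken off, GALNS had -0.025 and LAMP1 0.35, because their neighbours had moved further. Lists of the other genes changed by over 1.5 times for hydrolases (7 called) and autophagy (9) at an adjusted p under 0.01, and for sorting (3) and autophagy (10) with the neighbours' median taken off. The longer IDS row, ARSB and GALNS lost their calls at an adjusted p under 0.01. MAN2B1 and LIPA were called without a filter, and the shorter IDS row with the length offset or at least 10 counts in every sample. The cause was not tested. Deviations of same-numbered samples correlated at -0.18, 0.27 and 0.18, and those of differently numbered samples at -0.42 to 0.30. With 3 samples a genotype, these values cannot decide whether the numbers pair the samples. The replicate block gave 7477 genes, 19 lysosomal genes (MAN2B1, NAGLU and LIPA added), 63 of the other lists and -1.03 for AGA.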
